A study of Mus musculus with 13 samples.

Results

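The urea cycle and amino acid catabolism genes of the liver were followed as a module of 44 genes across 3 groups of mice. The members were found by their gene names in the scanner files. All 44 were on the array, and all 44 were among the 19518 genes tested. They make up the urea cycle with its ornithine carrier (7 genes), glutamine and glutamate handling (3), the alanine and aspartate transaminases (3), the tyrosine (5), tryptophan (4) and histidine (4) pathways, the serine, glycine and glyoxylate enzymes (4), proline and ornithine (3), lysine (1), the branched-chain amino acids (6) and the sulfur amino acids (4). The grouping by role was made for this description.

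The liver takes amino acids from the portal blood, moves their nitrogen to glutamate and ammonia through transaminases and deaminases, and burns or converts the carbon skeletons. Ammonia enters the urea cycle at carbamoyl phosphate synthetase, chiefly in hepatocytes near the portal vein, and what escapes is captured as glutamine by glutamine synthetase in hepatocytes around the central vein. Many of these enzymes are induced by glucagon and glucocorticoids and by protein feeding.

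RNA came from livers of female C57BL6 mice aged 12 weeks. The 3 groups differed in diet and additive: the diet labelled HFHS with vehicle (5 arrays), the standard diet, ST, with vehicle (3 arrays), and ST with a mixture of 4 pollutants (5 arrays). Neither the pollutants nor their doses, nor what the diets contained, are given in the sources used here. The submitters' design text leaves room for the mixture having been given in the HFHS diet, whereas the labels place all 5 pollutant arrays on ST, and the groups follow the labels. The samples are labelled as biological replicates, 1 array each, and no genetic change is labelled in any group.

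Each array used a single dye (Cy3), and 5 slides carried the 13 arrays. The brightness below which 75% of the probes lay was between 782.1 and 1353.9 intensity units per array, and 62.8% to 69.5% of the probes were well above background. All 44 members were well above background on all 13 arrays. Levels below are log2 values relative to that 75th percentile of the same array, so that 0 means a probe as bright as the percentile, and levels of different genes are not compared. Hepatocyte markers, 8 of 8 tested, had a mean level of 7.35 to 7.89 on every array. Pancreatic acinar transcripts (10 of 13 listed markers tested) stood at 4.74, 3.48 and 6.88 on HFHS vehicle replicates 3, 4 and 5 and between -2.99 and -1.60 on the other 10 arrays. Skeletal muscle markers (6 of 8 tested) stood at -3.49, -4.66, -0.45, -4.42 and -4.23 on the HFHS vehicle arrays. They stood at -0.77, -3.3 and -1.14 on the ST vehicle arrays and at -0.37, -0.35, -2.9, -0.39 and -2.46 on the pollutant arrays. In whole liver RNA, fewer cells of a type and less RNA per cell cannot be told apart.

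Between the mice given pollutants and the ST vehicle mice, 1 member was higher and 1 was lower at an adjusted p under 0.05 (limma, Benjamini-Hochberg over all genes). These were Gpt2 and Agxt. Over all genes tested, 192 were called, or 0.984% (0.543% higher and 0.441% lower). In that comparison 8 of 44 members had an unadjusted p under 0.05 (12.1% of all genes). Neither Gpt2 nor Agxt was called on the HFHS diet against ST vehicle, where 0 of 44 members passed (134 of all genes, 0.687%; 0.236% higher and 0.451% lower) and 2 members had an unadjusted p under 0.05 (12.1% of all genes). Between HFHS vehicle and ST pollutants 0 of 44 members passed (756 of all genes, 3.87%; 1.57% higher and 2.30% lower), and 5 had an unadjusted p under 0.05 (18.3% of all genes). Arrays on the same slide tended to deviate together from their group means (correlation across genes above 0.1 in 10 of 11 pairs, -0.021 to 0.563), while the reported fit takes no account of slide. With slide as a block, Cbs was called with pollutants against ST vehicle (1 of 44 members, against 67 of 19518 genes). No member was called on HFHS against ST vehicle (0 of 44, against 84 of 19518 genes). Between HFHS vehicle and pollutants Cbs was called (1 of 44, against 789 of 19518 genes), a share of members not above that of all genes.

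The promoters of both called genes are shown so that their base composition can be set beside each other. The windows are the 250 bases before the annotated start, from the RefSeq table for GRCm38.p6, 5′ to 3′ on the plus strand. Capitals mark matches to the short motifs searched on either strand, which are Sp1 sites in Gpt2 (GGGCGG, here on the minus strand and so printed as its reverse complement) and TGTTCT (the core of glucocorticoid receptor sites) in Agxt. The Gpt2 window lies at chr8:85492326-85492575 and the Agxt window at chr1:93134990-93135239.
Gpt2: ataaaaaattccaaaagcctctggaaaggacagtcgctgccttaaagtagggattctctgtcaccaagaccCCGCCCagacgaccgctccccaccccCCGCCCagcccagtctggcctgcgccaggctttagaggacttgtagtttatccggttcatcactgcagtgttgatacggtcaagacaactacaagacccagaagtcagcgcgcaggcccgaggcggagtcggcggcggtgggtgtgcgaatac
Agxt: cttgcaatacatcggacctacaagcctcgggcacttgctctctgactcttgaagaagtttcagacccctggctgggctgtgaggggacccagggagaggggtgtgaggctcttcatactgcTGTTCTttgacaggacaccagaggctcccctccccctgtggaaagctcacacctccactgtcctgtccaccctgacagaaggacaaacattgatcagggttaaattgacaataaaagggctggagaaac

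The Gpt2 window holds 16 CpG dinucleotides at 57.6% GC, and the Agxt window 2 at 53.6% GC. Of the 44 members, 34 had a window in the table, which holds 27025 in all. GGGCGG was in 14 of the 34 windows (41.2%) against 32.9% of all windows, and TGTTCT in 4 (11.8%) against 16.2%. CCAAT was in 18 member windows (52.9%) against 34.5%, and TATAAA in 5 (14.7%) against 13%. TGATGNAA, read by C/EBP and ATF4 pairs, was in 1 window (2.94%) against 3.53%, TGACGT of cyclic AMP response sites in 2 (5.88%) against 6.56%, and the E-box CACGTG in 2 (5.88%) against 6.05%. CAAAGTCCA of HNF4 sites was in 0 member windows and in 0.381% of all windows, and TGTTTAC of FOXA sites in 0 and in 3.09%. A match is a run of letters, not a measured site.

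**Figure D1:**
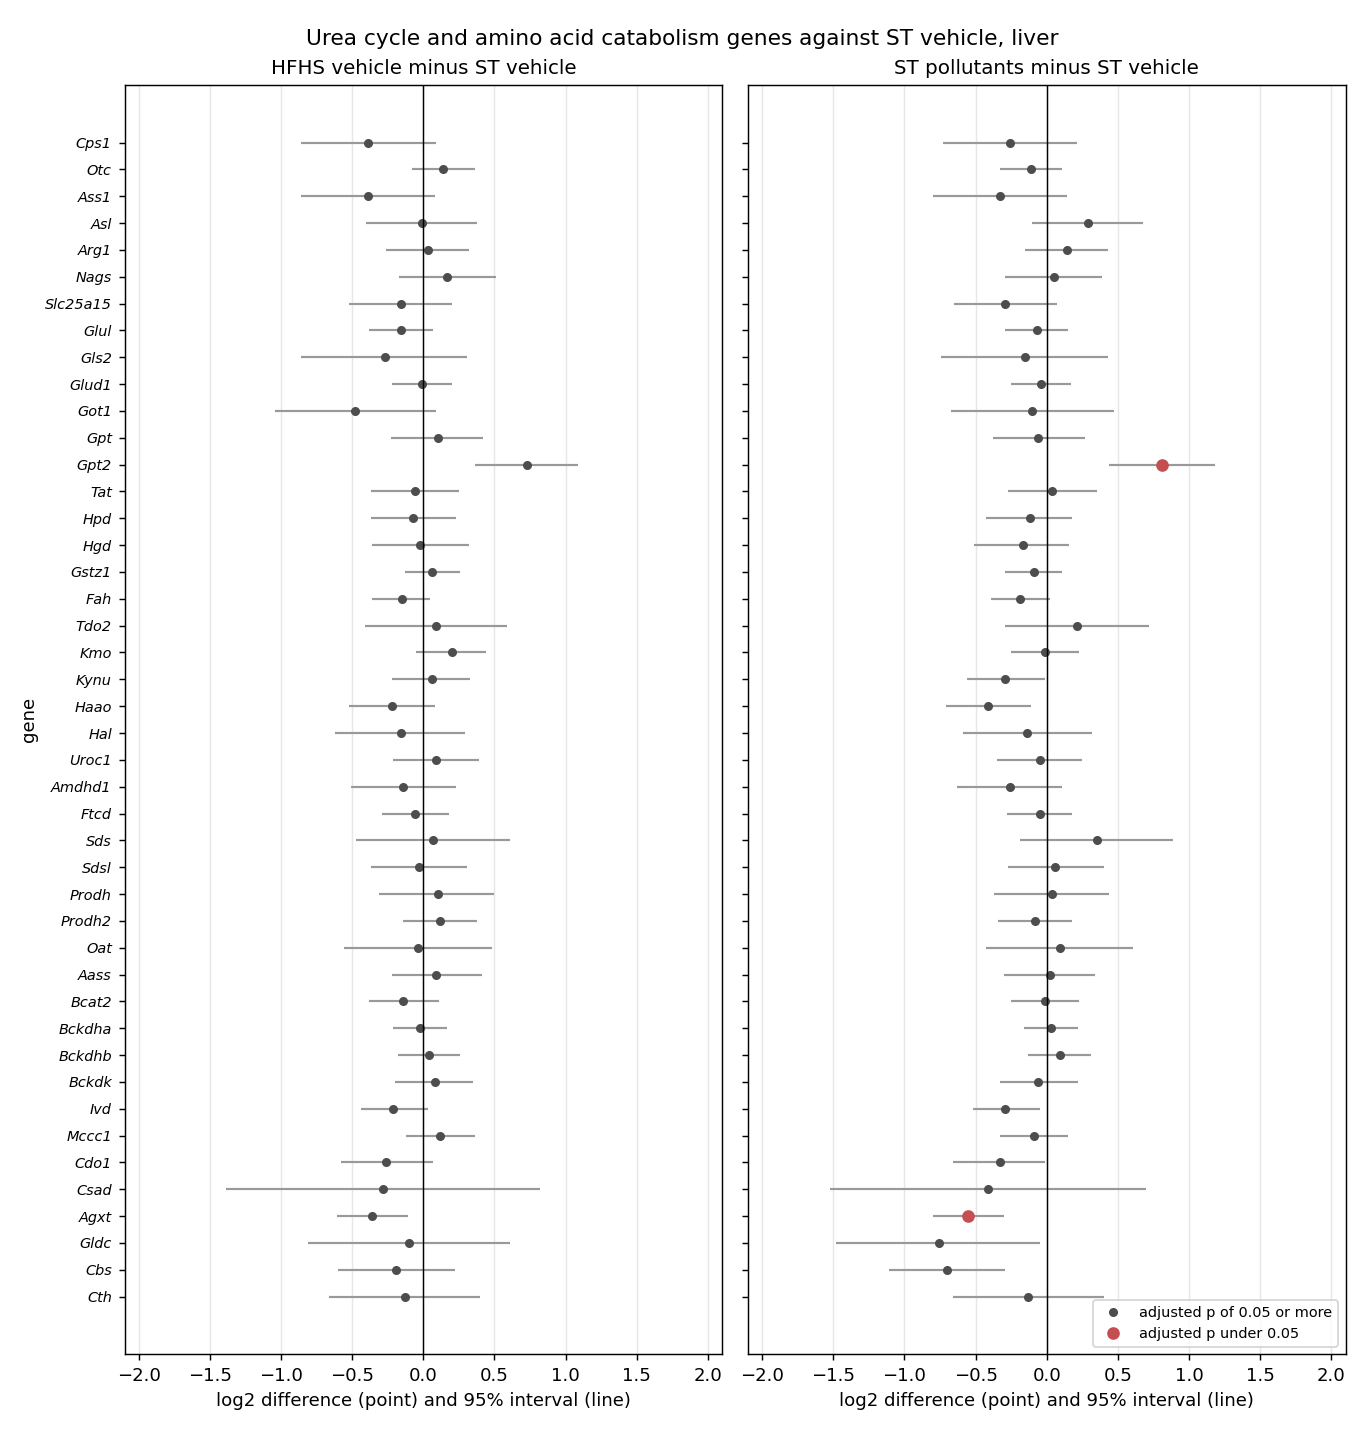
Log2 difference from ST vehicle (x axis) of each of the 44 genes (y axis), with its 95% interval from limma, for HFHS vehicle (left) and ST pollutants (right); red points have an adjusted p under 0.05. Gpt2 stands apart to the right in both panels (0.73 and 0.81), while Agxt, Cbs and Gldc lie to the left in the pollutant panel (-0.55, -0.70 and -0.76). Both panels share the 3 ST vehicle arrays.

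Gpt2 encodes the mitochondrial alanine transaminase, which links alanine with pyruvate and glutamate. Its level was 2.67, 3.02 and 2.79 on the 3 ST vehicle arrays and 3.46, 3.46, 3.90, 3.97 and 3.41 on the 5 pollutant arrays. All 5 pollutant arrays lay above all 3 ST vehicle arrays. The HFHS vehicle arrays read 3.23, 3.79, 3.44, 3.53 and 3.77 and were also all above ST vehicle. Gpt2 rose with the pollutants by 0.81 ± 0.17 on the log2 scale (standard error; 1.76-fold, 95% interval 0.44 to 1.18, adjusted p = 0.047). The difference of HFHS vehicle from ST vehicle was 0.73 ± 0.17 (1.65-fold, adjusted p = 0.081), and that between HFHS vehicle and pollutants was -0.09 ± 0.15 (95% interval -0.41 to 0.23). Whether the diet and the mixture differed in their effect on Gpt2 is thus bounded by that interval, and a p that misses the threshold does not show that they act alike. The first 2 differences share the ST vehicle arrays.

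The Gpt2 call sat close to the threshold. On slides 1, 2 and 5, which each held an ST vehicle array, the pollutant array exceeded it by 0.79, 0.44 and 0.62, and the HFHS vehicle array by 0.56, 0.77 and 0.98. With slide as a block the pollutant difference was 0.74 and the adjusted p 0.122. The call held with 6 of 26 other settings, and among the arrays left out in turn it held only without HFHS vehicle replicate 1 (adjusted p 0.0429 to 0.182). Without the 3 HFHS vehicle arrays high in acinar transcripts the HFHS difference was 0.68 (adjusted p = 0.368). The probe used for Gpt2 lies on mm9 chromosome 8, 88050856 to 88050915, plus strand; its place in the gene model was not analysed here.

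The other alanine transaminase gene, Gpt, encodes the cytosolic enzyme. Its level was 5.75, 5.94 and 5.43 on the ST vehicle arrays, 5.90, 5.98, 5.58, 5.76 and 5.80 on the HFHS vehicle arrays and 5.73, 5.58, 5.83, 5.82 and 5.28 on the pollutant arrays. The groups overlapped, with differences from ST vehicle of 0.10 ± 0.15 for HFHS vehicle (adjusted p = 0.946) and -0.06 ± 0.15 for the pollutants (adjusted p = 0.954), and the sign of each changed under some of the settings. Got1, the cytosolic aspartate transaminase, read 5.09, 5.31 and 5.32 in ST vehicle and 4.88, 4.89, 5.16, 5.31 and 5.47 with pollutants. On the HFHS diet it read 4.11, 5.09, 4.24, 5.16 and 5.23, so that replicates 1 and 3 were well below the other arrays of that group. Its differences were -0.48 ± 0.26 on HFHS (adjusted p = 0.533) and -0.10 ± 0.26 with pollutants (adjusted p = 0.956), with neither past the threshold.

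Agxt encodes the alanine-glyoxylate transaminase of hepatocytes, which detoxifies glyoxylate to glycine and is the enzyme lost in a form of primary hyperoxaluria. Its level was 7.29, 7.09 and 6.93 on the ST vehicle arrays, and 6.47, 6.31, 6.68, 6.68 and 6.63 on the pollutant arrays. All pollutant arrays were below all ST vehicle arrays. The HFHS vehicle arrays, at 6.82, 6.65, 6.74, 6.89 and 6.63, were below them as well and overlapped the pollutant arrays. Agxt fell by 0.55 on the log2 scale with the pollutants (standard error 0.11, 1.46-fold lower, 95% interval -0.80 to -0.30, adjusted p = 0.0444). The HFHS difference was -0.36 ± 0.11 (1.28-fold lower, adjusted p = 0.208), and HFHS vehicle minus pollutants was 0.19 ± 0.10 (95% interval -0.02 to 0.40, adjusted p = 0.344).

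This call, too, was near its threshold. Within slides 1, 2 and 5 the pollutant array differed from the ST vehicle array by -0.83, -0.78 and -0.30, and the HFHS vehicle array by -0.48, -0.44 and -0.30. With slide as a block the pollutant difference was -0.62 with an adjusted p of 0.0648. Leaving out any of the 13 arrays ended the call (adjusted p 0.0516 to 0.167), and it held with 3 of 26 other settings. The probe lies on mm9 chromosome 1, 95041901 to 95041959, plus strand.

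**Figure D2:**
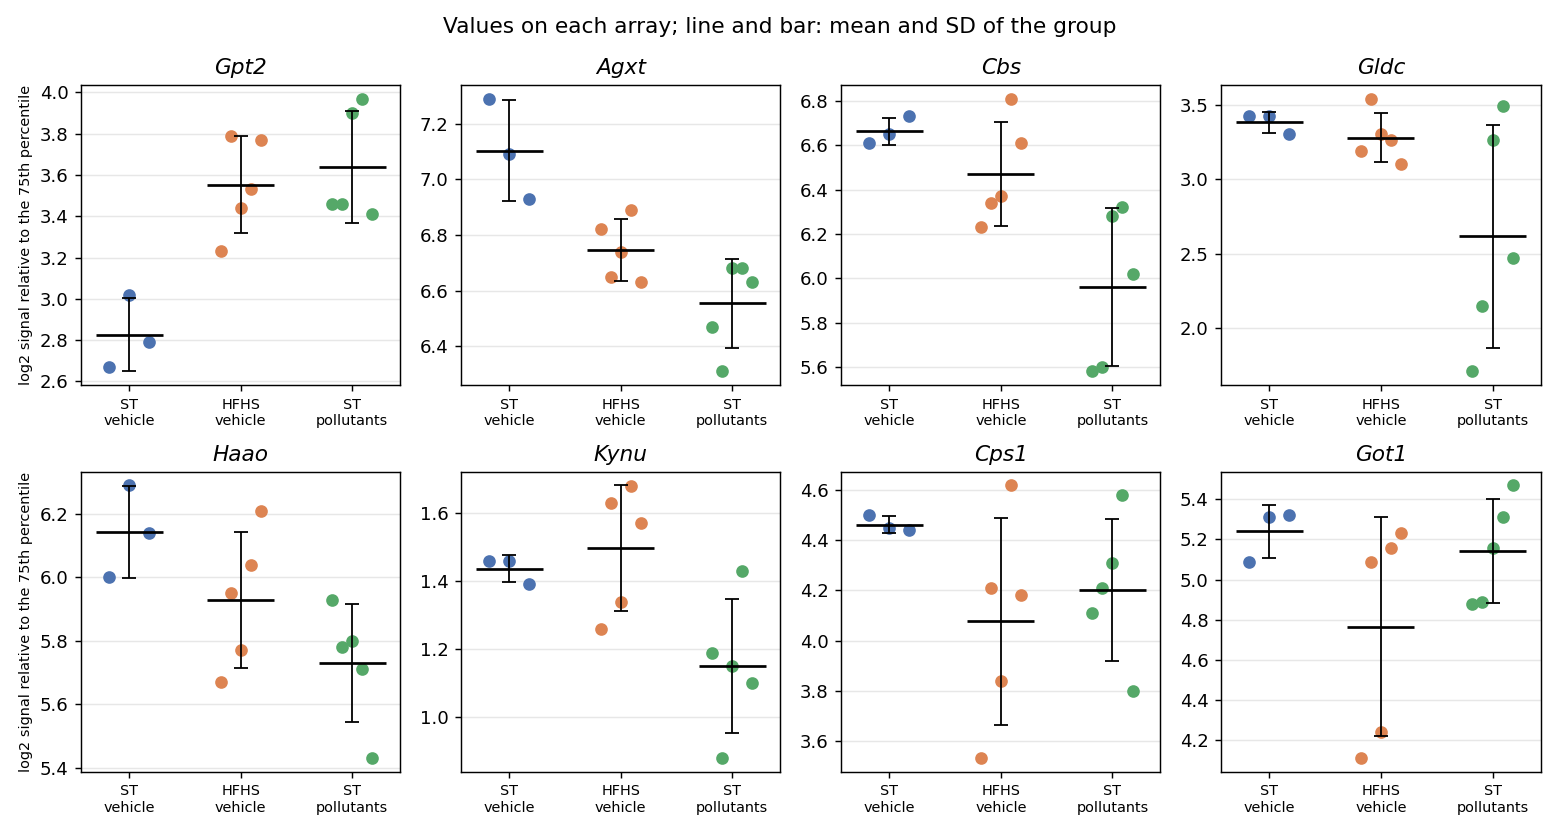
Level on each array (y axis, log2 signal relative to the 75th percentile of the array) of 8 genes in the 3 groups (x axis); points are arrays, the line is the group mean and the bar its SD (n = 3, 5 and 5), and each panel has its own y range. The 3 ST vehicle points of Gpt2 (2.67 to 3.02) lie below all other points and those of Agxt (6.93 to 7.29) above them, while Gldc and Cbs spread widely in the pollutant group.

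The other enzymes of serine and glycine differed more between arrays. Gldc, the decarboxylase of the glycine cleavage system, read 3.42, 3.42 and 3.30 in ST vehicle and 3.19, 3.54, 3.30, 3.26 and 3.10 on HFHS. With pollutants it read 1.71, 2.15, 3.26, 3.49 and 2.47, so replicates 1, 2 and 5 were below every other array and replicates 3 and 4 were at the level of the vehicle mice. The difference was -0.76 ± 0.33 (1.70-fold lower, adjusted p = 0.362) from ST vehicle and 0.66 ± 0.28 for HFHS vehicle minus pollutants (adjusted p = 0.233). Within slides 1, 2 and 5 the pollutant array differed from its ST vehicle array by -1.71, -1.27 and -0.82. Those slides held the same low replicates 1, 2 and 5. Replicates 3 and 4 were on slides 3 and 4, which held no ST vehicle array, and enter no such difference.

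Sds, the serine dehydratase, which makes pyruvate from serine and is a classical fasting enzyme, read 3.74, 4.19 and 3.43 in ST vehicle, 3.34, 4.19, 3.47, 4.22 and 4.07 on HFHS and 4.03, 3.88, 4.41, 4.48 and 3.88 with pollutants. The groups overlapped, with differences from ST vehicle of 0.07 ± 0.25 and 0.35 ± 0.25 (adjusted p = 0.986 and 0.685). Sdsl, its paralogue, differed by -0.03 and 0.06.

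Among the 4 sulfur amino acid genes, all 4 differences from ST vehicle were below 0 in both comparisons, and none passed the threshold. The signs held with each of the 4 other scalings tried, and both comparisons share the 3 ST vehicle arrays. Without ST vehicle replicate 2 the Csad mean of ST vehicle was below that of HFHS vehicle, so that sign rests on 1 array. Cbs, cystathionine beta-synthase, which commits homocysteine to cysteine synthesis, had the smallest adjusted p. It read 6.61, 6.65 and 6.73 in ST vehicle, 6.23, 6.34, 6.37, 6.81 and 6.61 on HFHS and 5.58, 5.60, 6.28, 6.32 and 6.02 with pollutants. All pollutant arrays were below all ST vehicle arrays, with replicates 1 and 2 lowest. The pollutant difference was -0.70 ± 0.19 (1.63-fold lower, 95% interval -1.11 to -0.29, adjusted p = 0.116), and the HFHS difference was -0.19 ± 0.19 (adjusted p = 0.846).

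Cbs moved across the threshold when the slides were taken into account. Within slides 1, 2 and 5 the pollutant array differed from its ST vehicle array by -1.03, -1.05 and -0.71. The pollutant arrays on those slides were the lowest of their group for Cbs (5.58, 5.60 and 6.02). Slides 3 and 4, with pollutants replicates 3 and 4 (6.28 and 6.32), held no ST vehicle array, so these replicates enter no such within-slide difference. With slide as a block the pollutant difference was -0.86 and the adjusted p 0.0379. HFHS vehicle exceeded pollutants by 0.51 ± 0.16 (adjusted p = 0.113), on each of the 5 slides by 0.65, 0.74, 0.08, 0.49 and 0.59, and with slide as a block by 0.51 (adjusted p = 0.0357). Without the 3 HFHS vehicle arrays high in acinar transcripts that difference was 0.32 (adjusted p = 0.522). The probe lies on mm9 chromosome 17, 31749593 to 31749652, minus strand.

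Cdo1, cysteine dioxygenase, which opens the route from cysteine to taurine, was at 5.95 to 6.04 in ST vehicle, 5.69 to 5.90 on HFHS and 5.33 to 5.93 with pollutants. Both groups were wholly below ST vehicle, by differences of -0.26 ± 0.15 (adjusted p = 0.575) and -0.33 ± 0.15 (adjusted p = 0.394). Cth, the next enzyme after Cbs, differed by -0.13 in each comparison. Csad, the cysteine sulfinate decarboxylase of taurine synthesis, had the widest spread of any member (SD within groups 0.76). It read 3.55, 3.49, 3.59 and 3.73 on HFHS vehicle replicates 1 and 3, ST vehicle replicate 2 and ST pollutants replicate 5, and 1.65 to 2.68 on the other 9 arrays. This split was noticed after the values were seen and cut across all 3 groups.

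**Figure D3:**
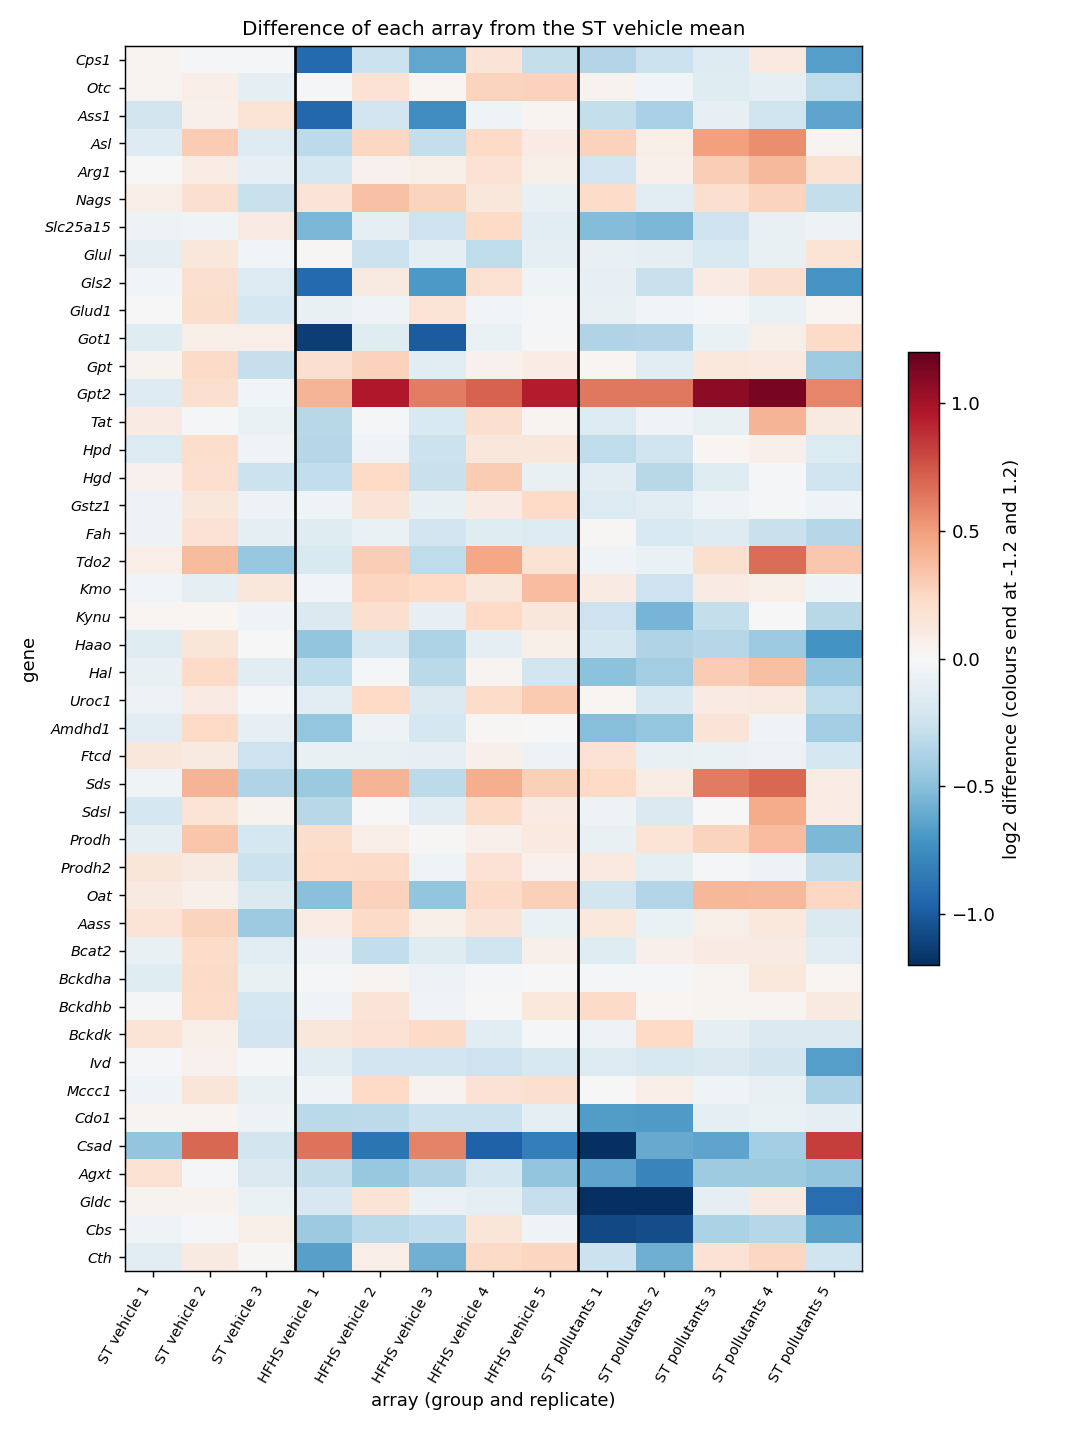
Difference of each array (x axis, group and replicate) from the ST vehicle mean of the gene (colour, log2, ending at -1.2 and 1.2) for the 44 genes (y axis). Genes are ordered mostly by role, but Agxt and Gldc stand between the sulfur amino acid genes Csad and Cbs. The Gpt2 row is red on all 10 HFHS vehicle and pollutant arrays, the Agxt row blue on all of them, and the columns of HFHS vehicle replicates 1 and 3 are blue for Cps1, Ass1, Gls2 and Got1.

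The urea cycle itself held no called member in any comparison. Cps1, the carbamoyl phosphate synthetase that sets the entry of ammonia, read 4.50, 4.45 and 4.44 in ST vehicle, 3.53, 4.21, 3.84, 4.62 and 4.18 on HFHS and 4.11, 4.21, 4.31, 4.58 and 3.80 with pollutants. The ST vehicle arrays were close together and the other groups spread to both sides of them. Its differences were -0.39 ± 0.22 on HFHS (adjusted p = 0.552) and -0.26 ± 0.22 with pollutants (adjusted p = 0.761). Ass1, argininosuccinate synthetase, read 7.59, 7.87 and 7.97 in ST vehicle, 6.87, 7.58, 7.06, 7.76 and 7.84 on HFHS and 7.52, 7.42, 7.71, 7.57 and 7.18 with pollutants. HFHS vehicle replicates 1 and 3 were the lowest of their group for both genes. The Ass1 differences of -0.39 ± 0.21 and -0.33 ± 0.21 missed the threshold (adjusted p = 0.536 and 0.64). Without the 3 HFHS vehicle arrays high in acinar transcripts, which leaves replicates 1 and 2, the HFHS differences were -0.60 for Cps1 and -0.59 for Ass1 (adjusted p = 0.455 and 0.421).

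Otc, the ornithine transcarbamylase that makes citrulline in mitochondria, read 5.36, 5.40 and 5.21 in ST vehicle, 5.31, 5.50, 5.35, 5.59 and 5.60 on HFHS and 5.37, 5.29, 5.18, 5.21 and 5.02 with pollutants. HFHS vehicle minus pollutants was 0.26 ± 0.09 (1.19-fold, adjusted p = 0.133), the largest difference of the 7 genes in that comparison after Asl, the argininosuccinate lyase, at -0.30 ± 0.16 (adjusted p = 0.355). Arg1, the arginase that releases urea, read 5.93, 6.02 and 5.83 in ST vehicle, 5.72, 5.98, 6.0, 6.10 and 6.0 on HFHS and 5.70, 5.99, 6.22, 6.32 and 6.11 with pollutants. The groups overlapped, and the differences were 0.03 ± 0.13 and 0.14 ± 0.13 (adjusted p = 0.989 and 0.794). Nags, which makes the activator of Cps1, differed from ST vehicle by 0.17 and 0.05, and Slc25a15, the mitochondrial ornithine carrier, by -0.16 and -0.29. For all 7 genes the 95% intervals against ST vehicle lay within a 2-fold change in both comparisons, as did those of 85.5% and 84.9% of all genes.

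Glutamine handling showed no call either. Glul, the glutamine synthetase of the cells around the central vein, read 5.40, 5.65 and 5.48 in ST vehicle, 5.52, 5.25, 5.40, 5.21 and 5.39 on HFHS and 5.42, 5.39, 5.33, 5.42 and 5.67 with pollutants. The groups overlapped (differences -0.16 ± 0.10 and -0.07 ± 0.10, adjusted p = 0.653 and 0.902). Gls2, the liver glutaminase of periportal cells, read 6.13, 6.35 and 6.0 in ST vehicle, 5.23, 6.27, 5.47, 6.34 and 6.11 on HFHS and 6.06, 5.89, 6.26, 6.35 and 5.45 with pollutants. HFHS vehicle replicates 1 and 3 and pollutants replicate 5 were low, and the differences were -0.27 ± 0.27 and -0.15 ± 0.27 (adjusted p = 0.846 and 0.924). Glud1, glutamate dehydrogenase, differed by -0.01 and -0.04.

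In the tyrosine pathway the 5 genes differed from ST vehicle by -0.15 to 0.06 on HFHS and by -0.19 to 0.04 with pollutants, and all 5 intervals lay within a 1.5-fold change in both (61.3% and 61.0% of all genes). Tat, tyrosine aminotransferase, the first step and a textbook glucocorticoid target, read 4.80, 4.69 and 4.62 in ST vehicle, 4.37, 4.69, 4.52, 4.90 and 4.74 on HFHS and 4.54, 4.66, 4.61, 5.11 and 4.81 with pollutants. The groups overlapped, and its differences were -0.06 ± 0.14 and 0.04 ± 0.14 (adjusted p = 0.98 and 0.97), with signs that changed under some settings. Fah, the last enzyme of the pathway, had the largest difference, -0.19 ± 0.09 with pollutants (adjusted p = 0.474).

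In the pollutant comparison 8 of 44 members had an unadjusted p under 0.05 (12.1% of all genes), and 2 of these were tryptophan genes. Haao, which makes the precursor of quinolinate, read 6.0, 6.29 and 6.14 in ST vehicle and 5.93, 5.78, 5.80, 5.71 and 5.43 with pollutants. These 2 groups did not overlap, while the HFHS vehicle arrays (5.67, 5.95, 5.77, 6.04 and 6.21) overlapped both. The pollutant difference was -0.41 ± 0.14 (1.33-fold lower, adjusted p = 0.217) and the HFHS difference -0.22 ± 0.14 (adjusted p = 0.636). Kynu, kynureninase of the same pathway, read 1.46, 1.46 and 1.39 in ST vehicle, 1.26, 1.63, 1.34, 1.68 and 1.57 on HFHS and 1.19, 0.88, 1.15, 1.43 and 1.1 with pollutants. It had the smallest adjusted p of the members between HFHS vehicle and pollutants (0.35 ± 0.11, adjusted p = 0.106), and HFHS vehicle was the higher on each of the 5 slides, by 0.07, 0.75, 0.19, 0.25 and 0.47.

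Kmo, the kynurenine hydroxylase, read 4.83, 4.75 and 5.00 in ST vehicle, 4.83, 5.12, 5.10, 5.00 and 5.23 on HFHS and 4.96, 4.61, 4.96, 4.93 and 4.81 with pollutants. The groups overlapped, and HFHS vehicle minus pollutants was 0.20 ± 0.10 (adjusted p = 0.295). Tdo2, the dioxygenase that opens the tryptophan ring, differed from ST vehicle by 0.09 and 0.21. The 4 histidine genes, from histidine ammonia-lyase (Hal) to Ftcd, differed by -0.16 to 0.09 on HFHS and by -0.26 to -0.05 with pollutants. None of the 4 reached an unadjusted p under 0.05.

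The 6 branched-chain genes differed from ST vehicle by -0.21 to 0.12 on HFHS and by -0.29 to 0.09 with pollutants. All 6 intervals lay within a 1.5-fold change in both comparisons (61.3% and 61.0% of all genes). Ivd, isovaleryl-CoA dehydrogenase of leucine breakdown, read 4.00, 4.08 and 4.00 in ST vehicle, 3.90, 3.80, 3.80, 3.78 and 3.83 on HFHS and 3.86, 3.83, 3.85, 3.81 and 3.37 with pollutants. Every HFHS vehicle and pollutant array was below every ST vehicle array, by differences of -0.21 ± 0.11 (adjusted p = 0.492) and -0.29 ± 0.11 (adjusted p = 0.277). Mccc1, a subunit of methylcrotonyl-CoA carboxylase in the same route, read 2.69, 2.89 and 2.65 in ST vehicle, 2.69, 2.98, 2.79, 2.92 and 2.94 on HFHS and 2.74, 2.82, 2.69, 2.65 and 2.37 with pollutants. The groups overlapped, and HFHS vehicle minus pollutants was 0.21 ± 0.10 (adjusted p = 0.263). Bckdha, Bckdhb, their inhibitory kinase Bckdk and the aminotransferase Bcat2 lay between -0.14 and 0.09 in both comparisons. Prodh, Prodh2 and Oat, of proline and ornithine, lay between -0.08 and 0.12, and Aass, the first lysine enzyme, at 0.09 and 0.02.

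Over the whole module, 27 of 44 differences were below 0 on HFHS (54.5% of all genes) and 31 of 44 with pollutants (51.8% of all genes). The median difference of the members was -0.03 on HFHS (-0.02 over all genes) and -0.08 with pollutants (-0.01 over all genes). With the 4 other scalings the count below 0 was 19 to 38 on HFHS, with medians of -0.15 to 0.03, so that no direction can be given there, and 29 to 31 with pollutants, with medians of -0.09 to -0.08. The pollutant median was -0.02 without ST vehicle replicate 2, -0.16 without ST vehicle replicate 3 and -0.04 without pollutants replicate 5. HFHS vehicle minus pollutants had a median of 0.06 (0.00 over all genes), with 19 of 44 differences below 0 (51.1% of all genes), or 12 to 26 with the other scalings. The groups did not overlap for 4 members on HFHS (1 higher, 3 lower; 9.15% of all genes, 3.82% higher and 5.33% lower), for 6 with pollutants (1 higher, 5 lower; 8.31%, 3.91% higher and 4.39% lower) and for 0 between HFHS vehicle and pollutants (6.93%; 2.74% higher and 4.19% lower). The count on HFHS is near its background, and that with pollutants is somewhat above it. The 95% intervals lay within a 2-fold change for 41, 40 and 42 of the 44 members (85.5%, 84.9% and 89.4% of all genes), and within a 1.5-fold change for 31, 25 and 37 (61.3%, 61.0% and 66.8%).

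Within the groups, members often went low on the same arrays. HFHS vehicle replicates 1 and 3 were the lowest pair of their group for 25 of 44 members (56.8%), against 12.9% of all genes and 19.2% of the 1465 other genes between the quartiles of the members' mean levels. They included Cps1, Ass1, Gls2, Got1, Sds, Tat and Hal. Pollutants replicates 1 and 2 were the lowest pair for 15 members (34.1%, against 18.5% of all genes and 27.5% of those of like level), Cbs, Gldc, Cdo1 and Agxt among them, and replicates 2 and 5 for 14 members (31.8%, against 10.2% and 13.4%). The pairs were picked after their values were seen, so these shares are descriptions. The periportal marker list, which itself holds the members Hal, Sds, Gls2, Ass1 and Cps1, had its lowest means on the same arrays, at 4.45 and 4.56 on HFHS vehicle replicates 1 and 3 and 4.88 to 5.18 elsewhere except 4.76 on pollutants replicate 5. Its part in the spread of the members was not tested. HFHS vehicle replicates 1 and 3 differ in acinar transcripts (-2.54 and 4.74), whose part was not tested either.

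Other genes of the same pathways, a list of 95 of which 88 were tested, gave 0 calls on HFHS against ST vehicle (limma, against 0.687% of all genes; 14 with an unadjusted p under 0.05, against 12.1%) and 1 with pollutants (against 0.984%; 16 with an unadjusted p under 0.05, against 12.1%). Qprt, which takes quinolinate, the product of the Haao branch, to the NAD precursor, was 3.86 to 4.33 in ST vehicle and 3.41 to 3.68 with pollutants, and fell by 0.57 on the log2 scale (standard error 0.12, adjusted p = 0.0435). Between HFHS vehicle and pollutants 3 were higher and 4 lower on HFHS (3.87% of all genes called; 20 of the 88 with an unadjusted p under 0.05, against 18.3%). Qprt (0.40 ± 0.10, adjusted p = 0.049), Amt, a subunit of the glycine cleavage system in which Gldc acts (0.79 ± 0.14, adjusted p = 0.00901), and Car5a, the mitochondrial carbonic anhydrase that supplies bicarbonate to Cps1 (0.53 ± 0.13, adjusted p = 0.0397), were higher. The amino acid transporters Slc1a4 (-1.18 ± 0.20), Slc38a2 (-0.73 ± 0.15) and Slc43a1 (-0.88 ± 0.14) and the kynurenine aminotransferase Kyat3 (-0.47 ± 0.10) were lower, at adjusted p of 0.00771, 0.0182, 0.00591 and 0.0244. The Qprt and Car5a calls lay near the threshold, and how the calls of these other genes fared under the other settings is not given here.

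Of 25 genes known to regulate or accompany hepatic amino acid catabolism, all tested, 0 were called on HFHS against ST vehicle (limma, against 0.687% of all genes; 2 with an unadjusted p under 0.05, against 12.1%) and 2 with pollutants (against 0.984%; 9 with an unadjusted p under 0.05, against 12.1%). Per1, a clock gene that also answers glucocorticoids, rose by 1.47 ± 0.27 (adjusted p = 0.0302), and Sik1, a kinase induced by cyclic AMP, by 1.29 ± 0.27 (adjusted p = 0.0483). Between HFHS vehicle and pollutants 3 were called (against 3.87%), and 11 of 25 had an unadjusted p under 0.05 (against 18.3%). Both genes were lower on HFHS than with pollutants (-1.02 ± 0.24 and -1.30 ± 0.23, adjusted p = 0.0359 and 0.0102), as was Pck1, the gluconeogenic carboxykinase (-1.10 ± 0.20, adjusted p = 0.0102). Of the 25 genes, 18 were below 0 there and 7 above. Fkbp5 (-0.60 ± 0.15) and Cebpb (-0.64 ± 0.19) were among those below 0 and missed the threshold (adjusted p = 0.0512 and 0.0874). The members Tat and Sds were not called in that comparison (-0.10 ± 0.12 and -0.28 ± 0.21, adjusted p = 0.787 and 0.576). How the calls of these regulators fared under the other settings is not given here, and whether hormonal control had a part was not tested.

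**Figure D4:**
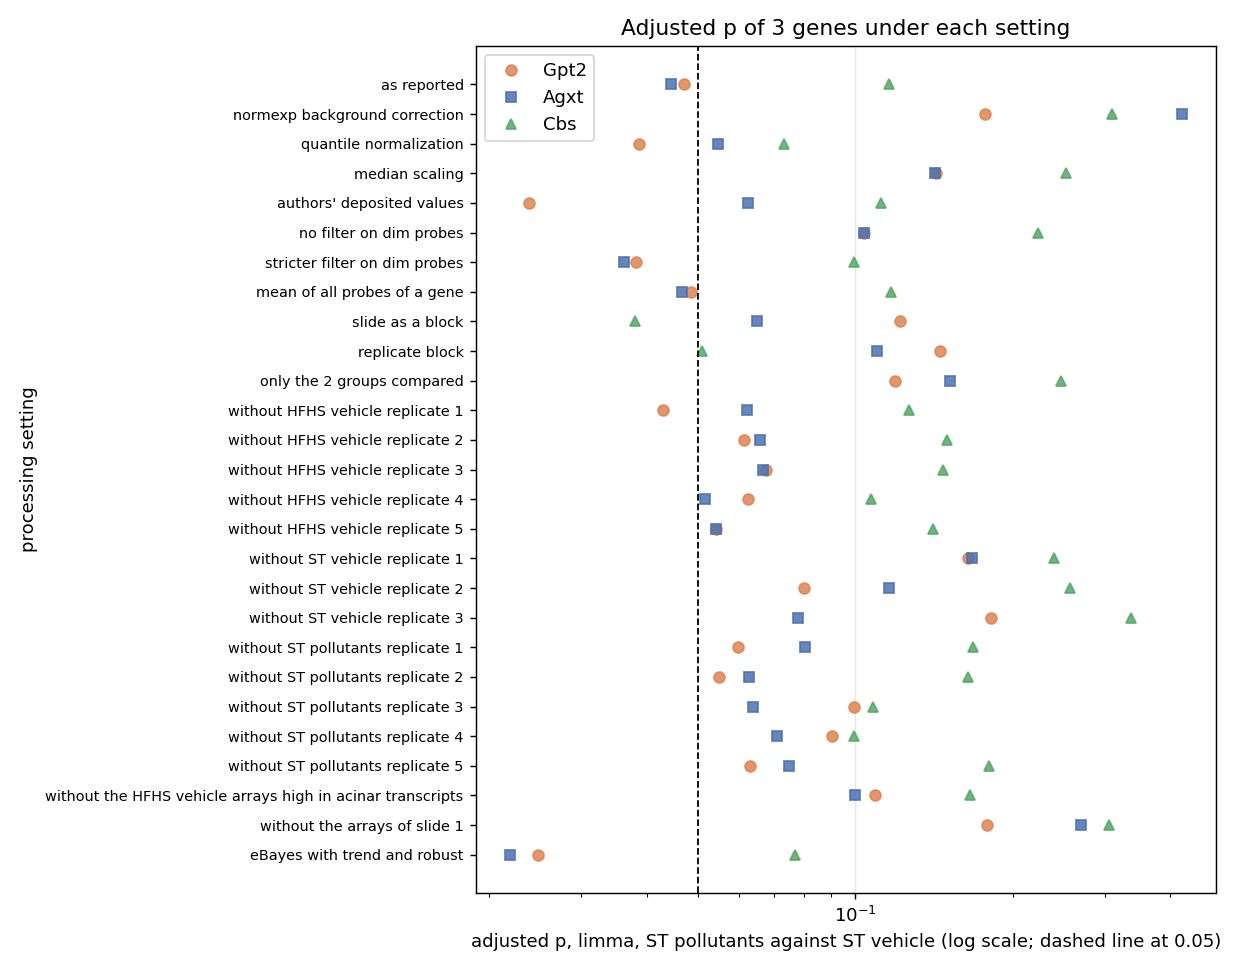
Adjusted p from limma (x axis, log scale, dashed line at 0.05) of Gpt2, Agxt and Cbs for ST pollutants against ST vehicle, as reported and under each of 26 other settings (y axis). Most points lie to the right of the line, and Gpt2 and Agxt cross it with 6 and 3 of the other settings and Cbs with 1, the slide block.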

How the data were processed

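The authors scanned the arrays and deposited linear spot intensity values from Agilent Feature Extraction 11.5.1.1, per the file headers. They also deposited log2 values for 26082 probes, which the submitters' processing notes link to limma and which served as an alternative. Its columns each matched their own array best (13 of 13, correlation at least 0.984), and its centring and exact scaling are not stated. Other scalings tried were normexp background correction, quantile normalization, the median and that table.

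Outlier spots were set missing, and the processed signals of 39429 probes were put on a log2 scale relative to the 75th percentile of their array. The filter kept probes that were well above background on all arrays of 1 or more groups, and each of the 19518 genes was represented by its probe of highest mean. limma 3.58.1 in R 4.3.3 fitted the 3 groups over 13 arrays, and contrasts were tested two-sided with Benjamini-Hochberg adjustment (threshold 0.05). All adjusted p-values come from this fit unless another setting is named. Errors of differences are standard errors, and the number of arrays limits precision. Of the members, 35 had 1 probe and 9 had 2; the second probes gave the same sign in 18 of 27 comparisons and differed by at most 0.25.

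Members called, the 6 of smallest p in each comparison, and Cps1, Arg1, Ass1, Glul, Gls2, Tat, Sds and Gpt are given in full. Cdo1 and Csad were added after their values were seen. The members, lists and tests were chosen with earlier results of these data known. The pipeline was tested on simulated data with independent genes and arrays and no slide effect. That test cannot show how shared slides affect the calls.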

Additional observations from a re-analysis of the deposited data

Results flagged for a closer look

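In the HFHS vehicle and pollutant groups, the highest or lowest array of each member was set against the rest of its group. Of 88 groups screened, 5 had an array whose gap to its neighbour exceeded 0.71 of the group's range, and chance gives about 1 in 20. The pericentral glutamine synthetase Glul reached 5.67 on pollutants replicate 5, against 5.42 for the next array. Ivd, of leucine breakdown, stood at 3.37 on the same array, against 3.81 for the next; without that array Ivd kept its place below all ST vehicle arrays. Glud1 reached 6.27 on HFHS vehicle replicate 3 (next 6.08), an array high in acinar transcripts, whose part was not tested. The histidine enzyme Ftcd reached 6.0 on HFHS vehicle replicate 4 (next 5.87), also an array high in acinar transcripts, whose part was not tested. The kinase Bckdk reached -0.09 on pollutants replicate 2 (next -0.39).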

How the results depend on the processing

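In the pollutant comparison, 2 members were called as reported, 0 with normexp background correction, median scaling, no filter on dim probes, the 2 groups alone, without the HFHS vehicle arrays high in acinar transcripts and without the arrays of slide 1, and 1 with quantile normalization and the authors' deposited values (Gpt2) and with slide as a block (Cbs). Leaving out each array gave 0 to 1. On HFHS against ST vehicle the count went from 0 to 1 with the authors' values (Gpt2, 0.75, adjusted p = 0.046). Between HFHS vehicle and pollutants it went from 0 to 2 with quantile normalization (Cbs and Gstz1) and to 1 with the authors' values and the slide block (Cbs).

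The replicate numbers did not meet the rule for pairs: the 11 same-number pairs correlated at -0.168 to 0.563, the values of -0.155 and -0.168 belonging to the 2 pairs on different slides, whereas same-slide pairs correlated at -0.021 to 0.563. Of the arrays, 6 of 13 correlated best with one of their own number. With the replicate block the pollutant comparison had 0 members called and 44 genes in all (192 without it), HFHS against ST vehicle 53 genes (134), and HFHS against pollutants 1 member (Cbs, 0.51) and 563 genes (756).

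Sign changes concerned small uncalled differences. The values here are of members given in full, and other members turned too. On HFHS against ST vehicle, 38 of 44 members were below 0 with normexp and 20 with quantile normalization, against 27 as reported. On HFHS against ST vehicle, normexp gave -0.13 for Arg1, -0.01 for Gpt, -0.03 for Kynu, -0.03 for Mccc1 and -0.08 for Sds. The slide block gave -0.06 for Arg1 and -0.03 for Sds, and the replicate block -0.05 for Arg1, -0.02 for Kynu and -0.04 for Sds. The mean of all probes gave -0.02 for Kynu and -0.04 for Sds, and leaving out the arrays high in acinar transcripts -0.08 for Arg1 and -0.02 for Sds. Tat was 0.03 with the authors' values and 0.06 without slide 1. Leaving out each array gave -0.02 to 0.09 for Arg1, -0.04 to 0.21 for Gpt, -0.11 to 0.27 for Sds and -0.12 to 0.01 for Tat. In the pollutant comparison it gave -0.12 to 0.00 for Glul, -0.20 to 0.06 for Gpt, -0.06 to 0.06 for Kmo and -0.05 to 0.09 for Tat; Kmo was 0.01 with quantile normalization, and Tat -0.02 with the slide block and -0.09 with the replicate block. The members' medians moved by less than their spread between single arrays (SD 0.15), though that of HFHS minus pollutants was -0.07 with normexp. An SD of single arrays is wider than the standard error of a difference between group means.

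Calls over all genes fell to 22 with normexp, 48 with median scaling, 67 with the slide block, 40 with the 2 groups alone, 70 without the filter and 3 without slide 1 in the pollutant comparison, and reached 296 with trend and robust variances. On HFHS against ST vehicle they were 45, 68, 84, 25, 55, 1 and 202, and between HFHS vehicle and pollutants 284, 323, 789, 525, 361, 1 and 918. Without the acinar-high arrays the counts were 92, 4 and 289. Between HFHS vehicle and pollutants, sign changes of small uncalled differences included Ass1 and Arg1 with quantile normalization, Glul with the authors' values and Ivd with normexp. Others turned too, Glud1, Hpd and Fah with normexp among them. Of 44 members, 26 were below 0 there with normexp and 12 with quantile normalization, against 19 as reported. Beyond the other scalings, that comparison was followed for 8 members alone. Calls over all genes with each array left out were 39 to 175, 23 to 140 and 349 to 712, in the same order of comparisons. The small ST vehicle group (3 arrays) limits the precision.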
